A study of Bos taurus with 16 samples.

Results

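The comparison described here set the endometrium against the circulating white blood cells (WBC) of the same 4 cows with subclinical endometritis (SCE), an inflammation of the uterine lining without outward signs of disease. It used 8 of the 16 arrays of the series, chosen by their labels as the SCE endometrium (n = 4) and the SCE WBC (n = 4), and paired by the number of the cow (718, 833, 836 and 846). The other 8 arrays came from 4 healthy cows (841, 850, 877 and 883) sampled in the same way, and were used only to ask whether the tissue difference itself differed between SCE and healthy cows. All cows were multiparous Holstein-Friesian cows sampled 45 to 55 days after calving, without clinical disease and without treatment in the labels, and SCE was diagnosed by histology. Endometrium was a whole biopsy taken through the cervix, so glands, surface epithelium, stroma, vessels and resident leukocytes were pooled in one RNA. WBC was RNA from blood drawn from the jugular vein into PAXgene tubes, in which the RNA of platelets and of remaining red cell precursors is kept beside that of leukocytes. Among the 4 SCE cows, 3 were in the luteal and 1 was in the follicular phase of the cycle, and the sources do not tie the phase to a cow.

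The uterine lining carries a secretory epithelium whose cells make antimicrobial proteins, mucus and local acute phase proteins, over a stroma rich in matrix and vessels. Neutrophils, monocytes and lymphocytes circulate in blood and enter the tissue through its venules, led by chemokines and held by adhesion molecules. In cattle, the lining is repaired after calving while it clears bacteria, and leukocytes that persist in it weeks later are the mark of endometritis. Genes of the lining, of the leukocytes and of the inflammatory signals between them were therefore collected in 29 lists that hold 586 distinct genes, of which 546 had a probe that could be tested.

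The RNA was labelled with cyanine 3 and hybridized to a custom bovine array of 60-base probes, 1 sample per array. The WBC arrays shared 1 slide and the endometrium arrays shared the other (8 each), so that tissue coincides with slide, and their shares in any value given here cannot be told apart. Having 4 arrays a group is what limits precision. Spots well above background made up 64.7% of the endometrium array of cow 833, whose median signal above background was 79, whereas the other 3 SCE endometria had medians of 257 to 316. Among SCE WBC the order was the opposite, with a median signal of 202.5 for cow 833 and 90.5 to 106 for the others. Pearson correlations between arrays ran from 0.933 to 0.979 within endometrium, from 0.955 to 0.989 within WBC, and from 0.761 to 0.826 between the tissues of the same cow. Levels are given as log2 of the quantile-normalized median signal, always in the order of cows 718, 833, 836 and 846, and differences as endometrium minus WBC within cow. A gene was called at an adjusted p of at most 0.05 in limma's TREAT test against a 1.2-fold threshold, and was read from its brightest probe.

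Of 26515 genes tested in SCE cows, 34% were called at the 1.2-fold threshold, 16.6% as higher in endometrium and 17.4% as higher in WBC. Beyond 4-fold, 5.11% were called, 2.96% as higher in endometrium and 2.14% as higher in WBC. In 45.4% of genes the 4 arrays of one tissue lay above the 4 of the other. The median difference over all genes was -0.15, and single genes ranged from -8.85 to 12.28. These shares rested on the scaling and on single cows. With each tissue normalized on its own, the median of all genes moved to 0.34 and 82.2% of calls were higher in endometrium (8335 against 1804), in place of 4392 against 4614. Without cow 833 the number of genes called rose from 9006 to 14092, and without cow 718, 836 or 846 it dropped to 5052, 5329 and 5360.

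The genes with the largest rise in endometrium included those of matrix, secreted and acute phase proteins. MGP, the matrix Gla protein that restrains mineral deposition, measured 18.71, 16.45, 18.62 and 18.22 in endometrium and 5.71, 5.72, 5.66 and 5.82 in WBC. No WBC array was well above background for it, so that endometrium was at least 4630-fold higher (log2 difference 12.28 ± 0.42, SE, n = 4, adjusted p = 9.4e-05). GRP, the gastrin-releasing peptide of uterine glands, measured 18.30, 16.36, 17.16 and 16.65 in endometrium and was at least 2600-fold higher there (11.66 ± 0.34). For both genes the 4 endometria lay more than 10 log2 units above the WBC of the same cow. COL1A2, a chain of type I collagen, was at least 1740-fold higher (10.81 ± 0.46), FBLN1, the matrix protein fibulin-1, at least 572-fold (9.36 ± 0.39) and PLAT, the tissue plasminogen activator, at least 582-fold (9.34 ± 0.36). SPARC, a matrix glycoprotein, differed by 10.29 ± 0.32, S100G, the calcium carrier calbindin-D9k, by 9.44 ± 0.64 and AQP1, a water channel of capillaries, by 9.11 ± 0.18, and these 3 genes were well above background on 2, 1 and 1 of the WBC arrays. The serum amyloid genes SAA2 and SAA3 completed the 10 largest rises.

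The largest falls in endometrium included genes known from platelets, granulocytes and monocytes. NFE2, a transcription factor of the erythroid and megakaryocyte lines, measured 9.02, 8.61, 7.41 and 7.49 in endometrium and 17.00, 17.27, 16.86 and 16.80 in WBC, a difference of -8.85 ± 0.29 (adjusted p = 9.1e-05). TGM3, a transglutaminase, differed by -8.01 ± 0.31, PF4, the platelet chemokine platelet factor 4, by -7.97 ± 0.21, FCN1, the lectin of monocytes and neutrophils that starts the complement lectin pathway, by -7.88 ± 0.29 and SDS, serine dehydratase, by -7.86 ± 0.19. S100A9, a subunit of calprotectin, differed by -7.71 ± 0.65, ALOX15, a lipoxygenase of eosinophils, by -7.65 ± 0.29, F13A1, the A chain of clotting factor XIII, by -7.56 ± 0.56, MPIG6B, an inhibitory receptor of platelets, by -7.40 ± 0.20 and CSF3R, the receptor for granulocyte colony-stimulating factor, by -7.32 ± 0.21. In each of these 10 genes all 4 WBC arrays lay above all 4 endometria. In a bulk biopsy or blood sample, fewer cells of a type and less RNA of a gene per cell cannot be told apart.

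**Figure D1:**
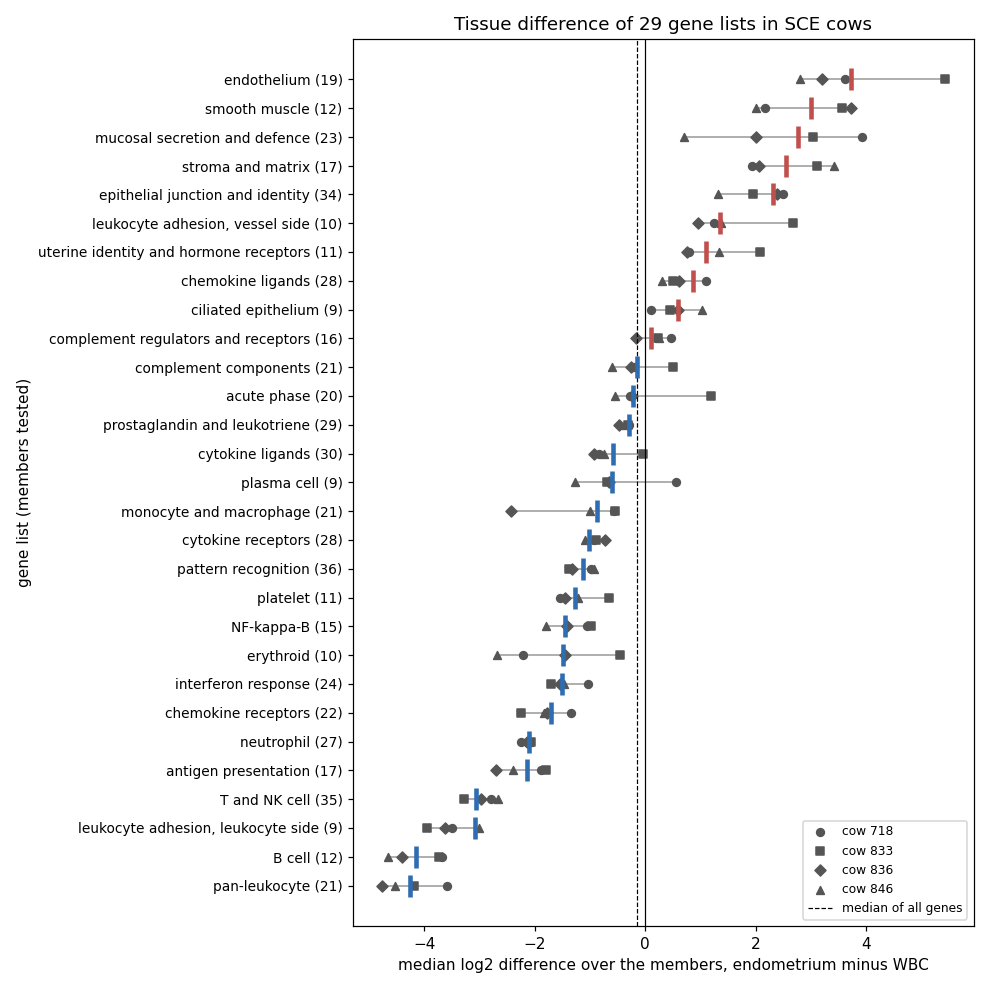
Median log2 difference (endometrium minus WBC, x axis) over the members of each of the 29 gene lists (y axis, members tested in brackets): coloured ticks are the median of the fitted differences, symbols the medians of the 4 cows, and the dashed line is the median of all genes at -0.15. The endothelial list stood highest at 3.73 and the pan-leukocyte list lowest at -4.25, and the 4 cows spread most in the mucosal, endothelial and erythroid lists.

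**Figure D2:**
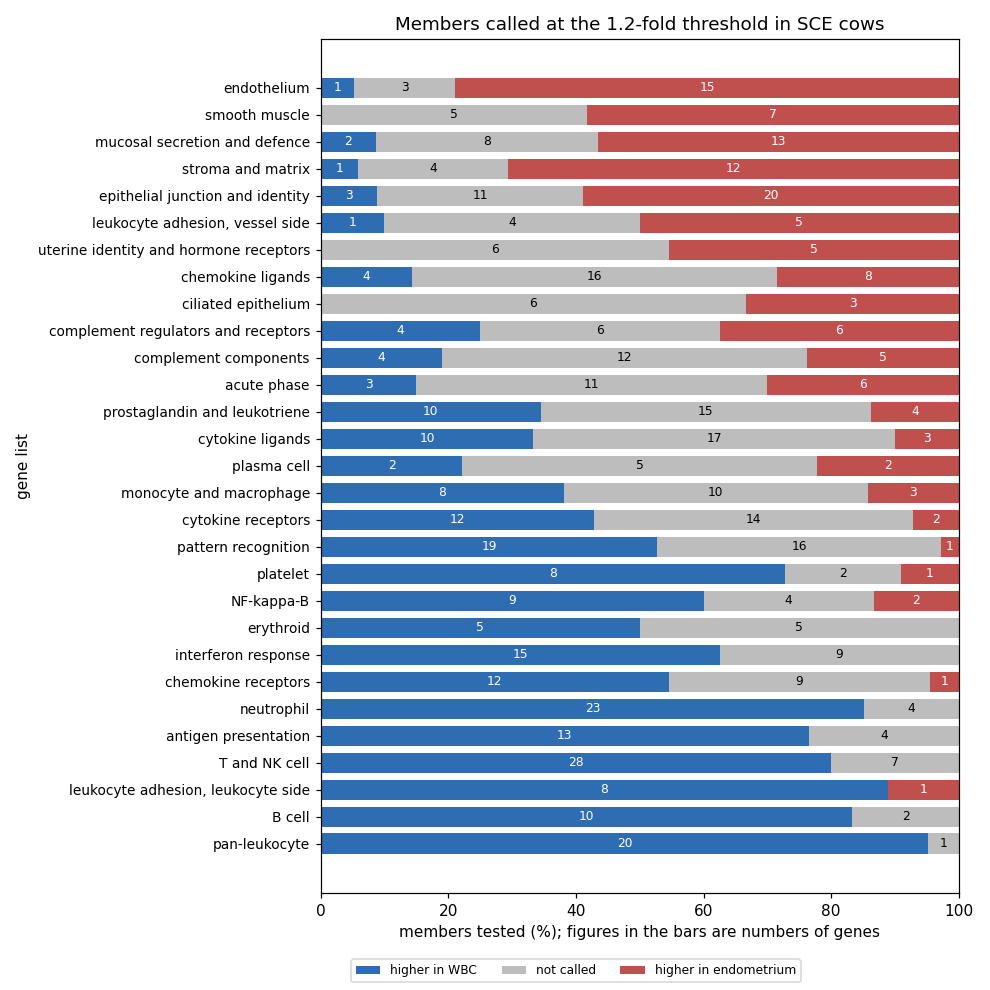
Share of the tested members of each gene list (x axis, percent) called at the 1.2-fold threshold as higher in WBC (blue), not called (grey) or called as higher in endometrium (red), with the number of genes in each bar. Over all genes 17.4% were called higher in WBC and 16.6% higher in endometrium.

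Pan-leukocyte genes were lower in endometrium than in WBC throughout. Of 21 members tested, 20 were called as higher in WBC and 0 as higher in endometrium, with a median of -4.25, and 14 were called beyond 4-fold. PTPRC, the CD45 phosphatase that all leukocytes carry, measured 12.39, 12.20, 12.25 and 11.77 in endometrium and 13.66, 14.24, 14.05 and 13.87 in WBC. The difference was -1.80 ± 0.20 (adjusted p = 0.0025) at this probe, the brightest. The other PTPRC probes were also called as higher in WBC, with larger differences of -6.43, -3.98 and -5.07. CORO1A, the leukocyte actin regulator coronin-1A, differed by -6.30 ± 0.38, SELPLG, the ligand through which leukocytes roll on selectins, by -5.71 ± 0.18, CD53, a leukocyte tetraspanin, by -4.77 ± 0.60 and ITGB2, the beta chain of the leukocyte integrins, by -4.25 ± 0.21. All 4 endometria were well above background for each of these 5 genes, and none reached the lowest WBC array. The mean level of the list ran from 9.75 to 10.53 over the 4 endometria and from 13.93 to 14.06 over the 4 WBC. The count of 20 was the same without any one cow and with each tissue normalized on its own, whereas the 14 became 11, 17, 9 and 10 without cow 718, 833, 836 or 846.

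Neutrophil genes were also higher in WBC, for 23 of 27 members tested and 10 beyond 4-fold, with a median of -2.10. The probes of the 3 members with the largest differences are shown because the reading of neutrophils in the lining turns on them. They were printed as on the array, with positions in the build named in the file headers (HGSC Btau_3.1), for CSF3R at chr3:116643966-116644025 on the plus strand, for CXCR1 at chr2:110616119-110616178 on the minus strand and for S100A9 at chr3:18511639-18511698 on the minus strand. No capitals are used in these 3.
CSF3R: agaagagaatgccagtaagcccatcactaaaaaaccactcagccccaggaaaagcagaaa
CXCR1: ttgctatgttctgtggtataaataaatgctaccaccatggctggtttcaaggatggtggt
S100A9: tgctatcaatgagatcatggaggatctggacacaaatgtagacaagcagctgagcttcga
CSF3R measured 7.06, 6.69, 6.45 and 6.11 in endometrium, well above background on 2 of 4 arrays, and 14.34, 13.69, 13.55 and 14.02 in WBC. CXCR1, a receptor for interleukin 8, measured 6.70, 6.30, 5.79 and 5.50 in endometrium, above background on 1 of 4 arrays, and 13.51, 13.15, 12.80 and 12.91 in WBC (difference -7.02 ± 0.18, adjusted p = 8.8e-05). Both receptors were thus near background in the lining and high in the blood of every SCE cow. S100A9 measured 7.36, 9.62, 6.42 and 5.99 in endometrium, and S100A8, its partner in calprotectin, 8.16, 10.45, 7.36 and 8.01, against 13.93, 14.62, 14.71 and 13.37 in WBC (difference -5.66 ± 0.50, adjusted p = 0.0009). For both calprotectin subunits the endometrium of cow 833 was the highest, by more than 2 log2 units over the next. CXCR2, the other receptor for interleukin 8, differed by -2.67 ± 0.20. The count of 23 dropped to 17 with each tissue normalized on its own and to 16, 17 and 16 without cow 718, 836 or 846, with 0 members higher in endometrium each time.

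Lymphocyte genes showed the same direction. T and NK cell genes were higher in WBC for 28 of 35 members tested, with a median of -3.06, and 0 were higher in endometrium. CD3E, a chain of the T cell receptor complex, measured 10.97, 8.67, 9.85 and 9.66 in endometrium and 15.21, 14.42, 14.85 and 14.79 in WBC (difference -5.03 ± 0.27, adjusted p = 0.00021). CCR7, the receptor that brings T cells to lymph nodes, differed by -6.50 ± 0.44, GZMB, a granzyme of cytotoxic cells, by -5.04 ± 0.31, CD2, an adhesion receptor of T cells, by -3.56 ± 0.22 and NKG7, a granule protein of cytotoxic cells, by -1.86 ± 0.19. Of 12 B cell genes tested, 10 were higher in WBC, with a median of -4.14. MS4A1, the CD20 antigen of B cells, measured 6.06, 6.02, 6.14 and 6.28 in endometrium, where no array was well above background, and 11.22, 11.79, 11.45 and 11.91 in WBC, at least 44.4-fold higher. TNFRSF13C, the receptor for the B cell survival factor BAFF, differed by -6.50 ± 0.27. The second MS4A1 probe was well above background in 1 of the 4 linings.

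Plasma cell genes did not follow the B cell genes. Of 9 tested, 2 were higher in endometrium and 2 higher in WBC, with a median of -0.61. JCHAIN, the joining chain of secreted IgA and IgM, measured 15.02, 10.28, 12.05 and 8.38 in endometrium and 10.68, 12.29, 11.61 and 10.68 in WBC, so that cow 718 stood 4.35 above and cow 846 2.30 below their own blood (mean difference 0.12 ± 1.13, adjusted p = 0.97). SDC1, a surface proteoglycan of plasma cells and of epithelium, was at least 21.6-fold higher in endometrium (4.59 ± 0.34). XBP1, a factor of secretory cells, differed by 1.60 ± 0.35, a call lost without cow 718, 836 or 846 (adjusted p = 0.10 each time). DERL3 and FKBP11, both of the endoplasmic reticulum, were higher in WBC (differences of -1.71 ± 0.28 and -1.98 ± 0.26), a call that DERL3 lost with each tissue normalized on its own (-0.77, adjusted p = 0.15). MZB1, a chaperone of antibody assembly, differed by -1.62 ± 0.54 (adjusted p = 0.08) and was called as lower without cow 833 (-2.29, adjusted p = 0.0013). The list's median was -0.46 relative to that of all genes but above it without cow 833 (0.29), where the counts became 3 and 4.

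Monocyte and macrophage genes went in both directions, with 8 of 21 higher in WBC, 3 higher in endometrium and a median of -0.87. FCN1 and CX3CR1, the fractalkine receptor of patrolling monocytes (-3.47 ± 0.43), were higher in WBC, as were CSF1R, the receptor for macrophage colony-stimulating factor (-2.92 ± 0.31), and CD163, the haemoglobin scavenger receptor (-2.34 ± 0.32). FCGR1A, a high-affinity IgG receptor, measured 8.67, 8.51, 7.59 and 8.40 in endometrium and 6.55, 6.71, 6.36 and 5.62 in WBC, higher in the lining in all 4 cows (1.98 ± 0.28, adjusted p = 0.0051). VSIG4, a complement receptor of tissue macrophages, was at least 3.85-fold higher in endometrium (adjusted p = 0.014), a call lost without cow 718 or 846 (adjusted p = 0.067 and 0.068). CD14, a co-receptor for lipopolysaccharide, measured 11.75, 11.01, 9.15 and 11.13 in endometrium and 10.94, 11.90, 11.68 and 11.40 in WBC, and was not called (-0.72 ± 0.53, adjusted p = 0.43). With each tissue normalized on its own, 5 members were higher in endometrium and 6 in WBC.

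Platelet and red cell genes moved with the blood samples. Of 11 platelet genes tested, 8 were higher in WBC and 1 in endometrium, with a median of -1.27. PF4 measured 6.71, 7.52, 7.27 and 6.75 in endometrium and 15.09, 15.74, 14.91 and 14.39 in WBC, and ITGA2B, the alpha chain of the platelet fibrinogen receptor, differed by -2.94 ± 0.19. THBS1, thrombospondin-1 of platelets and stroma, was higher in endometrium by 2.56 ± 0.46, a call lost without cow 846 (adjusted p = 0.054) and with the mean of its probes (1.04, adjusted p = 0.058). The 8 dropped to 4, 4 and 5 without cow 718, 836 or 846, and to 3 with each tissue normalized on its own. Of 10 erythroid genes, 5 were higher in WBC, with HBB, the beta globin, at 6.11, 6.59, 6.50 and 6.71 in endometrium against 13.34, 13.33, 11.87 and 13.84 in WBC (-6.62 ± 0.35), and ALAS2, the erythroid enzyme of haem synthesis, at least 18.7-fold higher in WBC. SLC4A1, the red cell anion exchanger, was well above background on no array. The 5 became 7 without cow 833 and 3 without any other cow. The part of platelet and red cell RNA in the other differences between the tissues was not tested.

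Epithelial genes marked the biopsies. Of 34 genes of epithelial junctions and identity, all tested, 20 were higher in endometrium and 3 in WBC, with a median of 2.32. EPCAM, the epithelial adhesion molecule, measured 13.76, 10.20, 14.04 and 11.81 in endometrium and 6.54, 6.91, 6.36 and 6.59 in WBC (5.86 ± 0.75, adjusted p = 0.0032). KRT18, a keratin of simple epithelium, was higher by 6.40 ± 0.40, CDH1, E-cadherin, by 4.42 ± 0.38 and DSP, desmoplakin of the desmosome, by at least 49.2-fold (5.90 ± 0.61). In all 4 genes the tissues did not overlap, and cow 833 had the lowest endometrium. CLDN4, a tight junction claudin, was called as higher in WBC at its brightest probe (-1.33 ± 0.25, adjusted p = 0.017), a call lost without cow 836 or 846 (adjusted p = 0.061 and 0.053). The call was also lost with each tissue normalized on its own (-0.36, adjusted p = 0.59) and with the mean of its probes (-0.72, adjusted p = 0.14). The other CLDN4 probe was not called (-0.12, adjusted p = 0.91). The brightest probe of KRT8, the keratin that pairs with KRT18, also went to WBC and is described with its other probes further on. The count of 3 in WBC became 0 without cow 836 or 846 and with each tissue normalized on its own, 1 without cow 718 and 6 without cow 833.

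Genes of ciliated epithelium gave few calls. Of 9 tested, 3 were higher in endometrium, with a median of 0.60. SPAG6, of the central pair of motile cilia, measured 8.79, 6.69, 9.83 and 9.71 in endometrium and was at least 7.92-fold higher there (adjusted p = 0.0092). RSPH1, of the radial spoke, was at least 2.88-fold higher (adjusted p = 0.032) and CAPS, calcyphosine, differed by 1.94 ± 0.43 (adjusted p = 0.024). Both calls were lost without cow 718, 836 or 846 (adjusted p = 0.085, 0.13 and 0.11 for RSPH1 and 0.076, 0.10 and 0.085 for CAPS). FOXJ1, the master factor of motile cilia, differed by -0.36 ± 0.29 and DNAI1, a dynein chain, by 0.60 ± 0.20, and neither was called, though FOXJ1 was as higher in WBC without cow 833 (-0.69, adjusted p = 0.047) and DNAI1 as higher in endometrium with each tissue normalized on its own (1.18, adjusted p = 0.013). The count of 3 became 6 with each tissue normalized on its own, 1 without cow 718, 1 without cow 836 and 0 without cow 846, where SPAG6 had an adjusted p of 0.051.

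Genes of mucosal secretion and defence were higher in endometrium for 13 of 23 members tested and higher in WBC for 2, with a median of 2.76 and 6 called beyond 4-fold. The probes of 2 of them, LTF at chr22:54347128-54347187 on the plus strand and TFF3 at chr1:145429703-145429762 on the minus strand, and that of EPCAM at chr11:30933924-30933983 on the plus strand, are printed since these genes carry the secretory and epithelial signal of the lining.
LTF: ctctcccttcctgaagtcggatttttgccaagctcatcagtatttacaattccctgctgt
TFF3: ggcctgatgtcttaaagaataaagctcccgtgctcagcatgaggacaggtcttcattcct
EPCAM: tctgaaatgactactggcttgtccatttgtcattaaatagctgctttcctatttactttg
LTF, the iron-binding antimicrobial lactoferrin, measured 16.73, 16.71, 17.58 and 13.10 in endometrium and 9.46, 9.42, 9.86 and 9.88 in WBC (6.37 ± 0.79, adjusted p = 0.0028), and all 5 of its probes were called as higher in endometrium. TFF3, a trefoil peptide of mucus, measured 12.98, 14.76, 13.13 and 12.73 in endometrium and 6.04, 5.83, 5.78 and 5.98 in WBC, at least 176-fold higher in the lining (adjusted p = 0.00019). The 4 linings lay from 12.73 to 14.76 in TFF3, whereas in LTF cow 846 stood below the other 3. PI3, the elastase inhibitor elafin, measured 15.33, 15.95, 13.96 and 8.89 in endometrium and 9.26, 8.52, 9.06 and 8.87 in WBC (4.60 ± 1.19, adjusted p = 0.033). SLPI, another inhibitor of leukocyte elastase, measured 9.10, 8.71, 7.79 and 6.12 in endometrium and was at least 4.22-fold higher there (adjusted p = 0.023). PIGR, the receptor that carries IgA into the lumen, measured 10.68, 11.11, 9.97 and 7.09 in endometrium and differed by 2.76 ± 0.78 (adjusted p = 0.046). Cow 846 had the lowest lining in each of these 3, overlapping blood in PI3 and PIGR, and the calls were lost without cow 718 or 836 (adjusted p = 0.12 and 0.12 for PI3, 0.075 and 0.067 for SLPI, 0.16 and 0.16 for PIGR), and for PIGR also without cow 833 (0.074). LCN2, lipocalin-2, which binds the iron carriers of bacteria, was higher in WBC (-2.32 ± 0.35, adjusted p = 0.0061). The other LCN2 probe was not called with all cows (-1.59 ± 0.72, adjusted p = 0.17). It became the brightest without cow 836 or 846 and was not called there either (adjusted p = 0.40 and 0.42). That loss of the LCN2 call thus came with a change of probe. MUC20, a membrane mucin, was also higher in WBC (-1.33 ± 0.33, adjusted p = 0.037), a call lost without cow 718, 836 or 846 (adjusted p = 0.13, 0.13 and 0.14). The 13 became 9 without cow 718 and 8 without cow 836, and the 2 became 1, 5, 0 and 0 without cow 718, 833, 836 or 846.

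Acute phase genes held the largest endometrial differences of the inflammatory lists and yet had a median of -0.22, with 6 of 20 higher in endometrium and 3 in WBC. The probes of the 3 serum amyloid A genes higher in endometrium all lie on chromosome 29 and are printed to show what each can tell apart. SAA2 was read at chr29:27730004-27730063 on the plus strand, SAA3 at chr29:27684334-27684393 on the minus strand and M-SAA3.2 at chr29:27773620-27773683 on the plus strand. Capitals mark the run of 24 bases that the SAA2 and SAA3 probes share.
SAA2: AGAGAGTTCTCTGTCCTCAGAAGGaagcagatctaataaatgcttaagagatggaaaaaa
SAA3: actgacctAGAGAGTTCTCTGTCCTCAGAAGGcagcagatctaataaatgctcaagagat
M-SAA3.2: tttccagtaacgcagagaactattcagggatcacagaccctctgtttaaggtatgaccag
When aligned without gaps, 50 of 52 bases of the SAA2 and SAA3 probes matched, so their signals are uncertain as separate genes. The M-SAA3.2 probe shared no run over 6 bases with either, but 22 bases with another SAA3 probe. SAA2 measured 16.91, 16.12, 17.96 and 16.35 in endometrium and 5.63, 5.57, 5.74 and 5.53 in WBC, at least 2130-fold higher in the lining. SAA3 measured 16.98, 16.22, 18.07 and 16.40 in endometrium and 6.44, 6.01, 6.55 and 5.94 in WBC (10.68 ± 0.26, adjusted p = 8.8e-05), and 6 of its 7 probes were called in that direction. M-SAA3.2, whose product is known from mammary tissue, was at least 449-fold higher in endometrium (8.91 ± 0.36). Every SCE lining held serum amyloid A signal far above blood, with cow 836 highest in all 3. HP, the haemoglobin scavenger haptoglobin, went the other way, at 9.31, 6.02, 5.89 and 6.55 in endometrium and 11.55, 12.24, 13.47 and 12.52 in WBC (-5.50 ± 0.85, adjusted p = 0.006). LBP, which hands lipopolysaccharide to CD14, differed by 0.38 ± 0.71 and was not called. The list's median was -0.08 relative to all genes but lay above theirs with processed signals scaled to the 75th percentile (0.15), with normexp (0.09), with probes averaged per gene (0.09), with a filter on dim probes (0.62) and without cow 718 (0.05). The 3 members higher in WBC became 7 without cow 833 and 1 without cow 836 or 846.

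**Figure D3:**
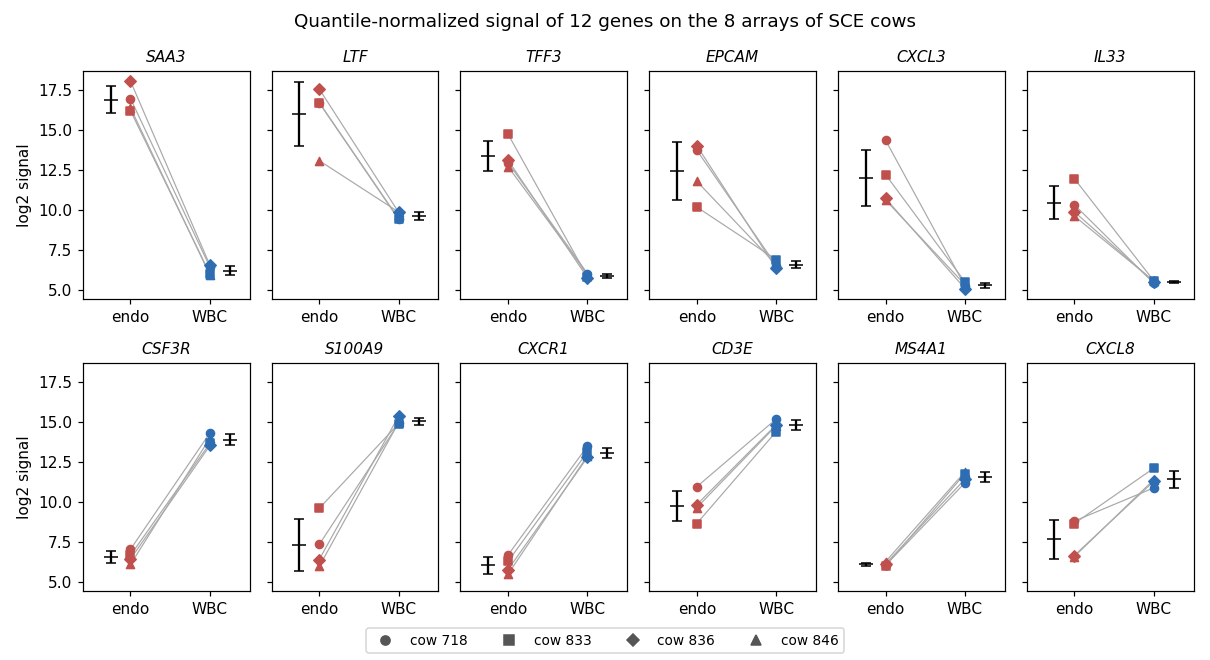
Quantile-normalized log2 signal (y axis) of 12 genes in endometrium (endo, red) and WBC (blue) of the 4 SCE cows, with a symbol per cow joined by a line and the mean ± SD of each tissue (n = 4) beside the points. SAA3, LTF, TFF3, EPCAM, CXCL3 and IL33 lay higher in every lining, and CSF3R, S100A9, CXCR1, CD3E, MS4A1 and CXCL8 higher in the blood of every cow.

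The endothelial and stromal lists had the highest shares of members called in endometrium, 78.9% and 70.6%. Of 19 endothelial genes, 15 were higher in endometrium and 1 in WBC, with a median of 3.73. ROBO4, a guidance receptor of vessels, was at least 224-fold higher (8.12 ± 0.37), EMCN, the venous sialomucin endomucin, at least 129-fold (7.12 ± 0.22) and CDH5, the vascular cadherin, at least 5.35-fold (adjusted p = 0.011). KDR, the main receptor for vascular endothelial growth factor, differed by 4.63 ± 0.38 and VWF, the platelet-binding von Willebrand factor, by 3.73 ± 0.66 (adjusted p = 0.01, and 0.05 without cow 836, which ended the call). PROX1, the factor of lymphatic endothelium, was well above background in no SCE endometrium and at least 3.03-fold higher in WBC, and that count of 1 became 3 without cow 833. Of 17 genes of stroma and matrix, 12 were higher in endometrium and 1 in WBC, with PDGFRA, the receptor of stromal fibroblasts, at 4.80 ± 0.51. COL6A2, a collagen VI chain, was the member higher in WBC by its brightest probe (-0.94 ± 0.23, adjusted p = 0.047), a call lost without cow 718, 836 or 846 (adjusted p = 0.18, 0.17 and 0.13), while 2 members were called so without cow 833. Its 3 other probes were called as higher in endometrium by 1.91 to 4.85, the difference turned to 0.05 with each tissue normalized on its own and to 2.62 as the mean of its probes. Of 12 smooth muscle genes, 7 were higher in endometrium, among them CNN1, calponin of the contractile apparatus, at least 273-fold, MYH11, smooth muscle myosin (7.07 ± 0.81), and ACTA2, smooth muscle actin (4.34 ± 0.39).

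Genes of uterine identity and hormone reception were higher in endometrium for 5 of 11 members tested, and 0 were higher in WBC. MSX1, a homeobox factor of the uterine epithelium, measured 14.40, 11.74, 16.09 and 14.84 in endometrium and was at least 298-fold higher there. HOXA10, the homeobox factor of the uterine segment, measured 14.12, 10.39, 12.69 and 14.56 and was at least 144-fold higher. PGR, the progesterone receptor, measured 10.19, 8.18, 9.87 and 10.65 in endometrium and 6.62, 6.11, 6.42 and 6.78 in WBC (3.24 ± 0.33, adjusted p = 0.0015). In these 3 genes the lining of cow 833 was the lowest and still above every WBC array. ESR1, the oestrogen receptor alpha, measured 6.67, 7.85, 6.60 and 6.81 in endometrium and 7.30, 6.19, 6.27 and 6.13 in WBC. It was not called at this probe (0.51 ± 0.38), where cow 833 had the largest within-cow difference (1.66, the others from -0.63 to 0.68). Without cow 833 another ESR1 probe became the brightest and was called (0.98, adjusted p = 0.0096). That call thus came with a change of probe. Of the other ESR1 probes with all cows, those at 0.98 and 1.08 were called as higher in endometrium (adjusted p = 0.016 and 0.022). The probe at 0.76 was not (adjusted p = 0.12), while the mean of its probes was (0.83, adjusted p = 0.018).

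Cytokine ligands were called mostly in blood, with 10 of 30 higher in WBC and 3 higher in endometrium, and a median of -0.58. IL1B, the main secreted interleukin 1, measured 12.45, 12.77, 12.13 and 11.72 in endometrium and 14.85, 15.42, 14.59 and 14.16 in WBC. The difference of -2.49 ± 0.15 (adjusted p = 0.00032) varied between cows only from -2.64 to -2.40. TNF, tumour necrosis factor, measured 8.26, 6.42, 6.79 and 7.29 in endometrium and 10.46, 10.86, 10.09 and 10.32 in WBC (-3.24 ± 0.37). IL1RN, the antagonist of the interleukin 1 receptor, differed by -5.73 ± 0.40 and IL16, a chemoattractant for CD4 cells, by -3.49 ± 0.34. IL33, an alarmin of endothelial and stromal nuclei, measured 10.35, 11.98, 9.90 and 9.64 in endometrium and was at least 25.9-fold higher there. TGFB3, a transforming growth factor beta, was higher in endometrium by 3.38 ± 0.26. IL6, a driver of the acute phase, measured 8.60 in the lining of cow 718 and 5.70, 5.69 and 6.15 in the others, with no WBC array and only that lining well above background, and was not called (0.84 ± 0.55, adjusted p = 0.36). The 10 became 15 without cow 833, while 5 ligands were higher in endometrium with each tissue normalized on its own.

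Cytokine receptors were higher in WBC for 12 of 28 members tested and higher in endometrium for 2. Among receptors, CSF3R and TNFRSF1B, the second receptor for tumour necrosis factor (-3.58 ± 0.19), were high in blood. TGFBR3, betaglycan, differed by 5.12 ± 0.39 and OSMR, the oncostatin M receptor, was at least 7.48-fold higher in endometrium. IL6R, the interleukin 6 receptor, measured 13.66, 10.46, 14 and 11.33 in endometrium and 13.83, 13.64, 13.37 and 13.36 in WBC, so that the other two lay below blood where cows 718 and 836 lay near it (-1.19 ± 0.65, adjusted p = 0.26). IL1R1, the signalling receptor for interleukin 1, was not called (0.51 ± 0.32) but was without cow 833 (0.88, adjusted p = 0.015), whereas 2 of its 3 probes were called as higher in WBC. The split of 2 and 12 became 6 and 6 with each tissue normalized on its own, 2 and 8 without cow 718, 836 or 846, and 5 and 15 without cow 833.

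Of 28 chemokine ligands tested, 8 (28.6%) were higher in endometrium and 4 (14.3%) in WBC, with a median of 0.86. Over all genes the shares were 16.6% and 17.4%. CXCL3, which attracts neutrophils through CXCR2, measured 14.38, 12.23, 10.74 and 10.64 in endometrium and 5.26, 5.52, 5.10 and 5.34 in WBC, at least 74.9-fold higher in the lining (adjusted p = 0.0012). CXCL12, a stromal ligand of CXCR4, measured 11.63, 14.05, 10.51 and 10.36 in endometrium and 6.79, 6.57, 6.78 and 7.34 in WBC (4.77 ± 0.73), and CCL14, a ligand for monocyte receptors, was at least 40.6-fold higher in endometrium. CXCL8, interleukin 8, which acts on CXCR1 and CXCR2, went the other way, at 8.82, 8.67, 6.67 and 6.60 in endometrium and 10.90, 12.13, 11.31 and 11.41 in WBC (-3.74 ± 0.49, adjusted p = 0.0034). CCL5, made by T and NK cells, differed by -3.10 ± 0.22. The neutrophil attractants CXCL3 and CXCL8 thus lay on opposite sides in all 4 cows. The 8 became 12 with each tissue normalized on its own, and 7, 11, 7 and 6 without cow 718, 833, 836 or 846, and the 4 became 3, 6, 2 and 2.

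Chemokine receptors were higher in WBC for 12 of 22 members tested, with a median of -1.70. CXCR1 and CCR7 differed most. ACKR3, which binds CXCL12 without calling cells, was the 1 receptor higher in endometrium, at 10.11, 10.23, 9.44 and 10.78 against 6.30, 6.73, 6 and 6.27 in WBC (3.81 ± 0.23, adjusted p = 0.00029). CXCR4, the signalling receptor for CXCL12, measured 11.25, 7.56, 8.55 and 9.14 in endometrium and 11.13, 11.19, 9.72 and 10.18 in WBC, and was not called (-1.43 ± 0.59, adjusted p = 0.14). Without cow 833 the counts were 15 in WBC and 2 in endometrium.

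Genes that sense microbes and pass the signal on were higher in blood. Of 36 pattern recognition genes, 19 were higher in WBC and 1 in endometrium, with a median of -1.12. PYCARD, the adaptor of inflammasomes, differed by -3.83 ± 0.20, CASP1, the protease that matures interleukin 1 beta, by -4.80 ± 0.21, and MYD88, the adaptor of most Toll-like receptors, by -1.80 ± 0.24. LY96, the MD-2 subunit of the lipopolysaccharide receptor, was the member higher in endometrium at its brightest probe (1.81 ± 0.43, adjusted p = 0.028). Its other probes were not called (0.04 and -0.33), and neither was the mean of its probes (0.51, adjusted p = 0.3). The call at the brightest probe was lost without cow 718, 836 or 846 (adjusted p = 0.11, 0.086 and 0.11). The 19 dropped to 12, 13 and 14 without those cows, and 2 members were higher in endometrium without cow 833. TLR4, the receptor for lipopolysaccharide, differed by -0.23 ± 0.22 and TLR2, the receptor for bacterial lipoproteins, by -0.49 ± 0.17 at their brightest probes, and neither was called. Of 15 genes of the NF-kappa-B pathway, 9 were higher in WBC and 2 in endometrium. NFKB1, a subunit of the factor, differed by -2.11 ± 0.22, and the inhibitors NFKBIE and TNIP1 by -2.49 ± 0.17 and -2.25 ± 0.30. TNFAIP3, the A20 inhibitor, was well above background in no lining and on 2 WBC arrays (-0.84 ± 0.17, adjusted p = 0.029), a call lost without cow 718, 836 or 846 (adjusted p = 0.12, 0.064 and 0.11). NFKBIZ, a nuclear co-factor, was higher in endometrium at its brightest probe (3.36 ± 0.78, adjusted p = 0.024). Its other probe was not called (-0.80, adjusted p = 0.089), and neither was the mean of its probes (1.28, adjusted p = 0.06). CHUK, a kinase of the pathway, was also higher in endometrium (2.42 ± 0.54, adjusted p = 0.023). The WBC of cow 833 measured 10.01 in NFKBIZ and 11.21 in CHUK against 6.64 to 7.44 and 8.17 to 8.85 in the other 3. Both calls were lost without cow 718, 836 or 846 (adjusted p from 0.053 to 0.099 for NFKBIZ and from 0.094 to 0.098 for CHUK). The 9 dropped to 7, 6 and 7 without those cows and to 4 with each tissue normalized on its own.

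Complement components were called in both directions, at shares near those of all genes. Of 21 components, 5 (23.8%) were higher in endometrium and 4 (19%) in WBC, against 16.6% and 17.4% over all genes. The list's median was 0.01 relative to that of all genes. C4A, the shared component of the classical and lectin pathways, measured 14.71, 14.70, 13.20 and 13.93 in endometrium and 7.99, 8.10, 8.07 and 8.21 in WBC (6.04 ± 0.31, adjusted p = 0.00019), and C1S, a protease that starts the classical pathway, differed by 4.42 ± 0.32. CFP, properdin of the alternative pathway, was higher in WBC (-4.81 ± 0.19), as was FCN1. C3, on which all pathways meet, measured 13.13, 12.79, 12.02 and 11.48 in endometrium and 11.81, 11.28, 11.47 and 12.08 in WBC, and 0 of its 10 probes were called (0.69 ± 0.38 at the brightest), though the brightest was with each tissue normalized on its own (1.45, adjusted p = 0.035). CFB, the protease of the alternative pathway, measured 12.87, 14.61, 11.47 and 8.35 in endometrium and 8.88, 8.54, 9.14 and 8.63 in WBC (3.03 ± 0.99, adjusted p = 0.069), with a call without cow 846 (4.13, adjusted p = 0.028). C2, the matching protease of the classical pathway, differed by -1.46 ± 0.53 and was called without cow 833 (-2.07, adjusted p = 0.0046). Without cow 833 the components were 5 and 7, and without cow 836 3 and 4.

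Of 16 complement regulators and receptors, 6 were higher in endometrium and 4 in WBC. SERPING1, the inhibitor of C1, measured 14.50, 14.43, 13.15 and 13.36 in endometrium and 7.19, 6.82, 6.97 and 7.44 in WBC (6.76 ± 0.34, adjusted p = 0.00017). The receptors for the anaphylatoxin C5a, C5AR1 (-4.71 ± 0.24) and C5AR2 (-3.51 ± 0.33), were higher in WBC. CD55, which takes the C3 convertase apart, differed by -2.03 ± 0.70 (adjusted p = 0.085) and was called without cow 833 (-1.11, adjusted p = 0.015). Its other probe was called as higher in WBC with all cows (-3.62 ± 0.21, adjusted p = 0.00025). The mean of its probes was also called so (-2.82, adjusted p = 0.0061). The 6 became 3 without cow 718 and 4 without cow 836 or 846.

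Of 29 genes of the prostaglandin and leukotriene pathways tested, 4 were higher in endometrium and 10 in WBC. PTGDS, a prostaglandin D synthase, measured 12.74, 13.27, 12.39 and 12.78 in endometrium and 6.52, 6.26, 6.10 and 6.33 in WBC (6.49 ± 0.20, adjusted p = 8.8e-05). PTGS2, the inducible cyclooxygenase, measured 13.80, 8.60, 9.30 and 8.40 in endometrium and 5.48, 6.27, 5.43 and 5.41 in WBC (4.37 ± 1, adjusted p = 0.023), a call lost without cow 836 or 846 (adjusted p = 0.079 and 0.062) and with the mean of its probes (1.65, adjusted p = 0.06). AKR1B1, an aldose reductase that makes prostaglandin F2alpha in bovine endometrium, differed by 4.33 ± 0.60. The lipoxygenase genes named were higher in WBC, with ALOX5, the 5-lipoxygenase, at -2.39 ± 0.37, its activating protein ALOX5AP at -5.38 ± 0.30, and ALOX15 at 6.35, 6.78, 6.37 and 6.70 in endometrium against 13.35, 15.31, 14.22 and 13.93 in WBC. The list's median was -0.15 relative to all genes, but 0.01 with each tissue normalized on its own and 0.17 with the mean of a gene's probes. The split became 8 and 8 with each tissue normalized on its own and 9 and 11 without cow 833.

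Adhesion molecules sorted by the side of the vessel on which they act. Of 10 vessel-side genes, 5 were higher in endometrium and 1 in WBC. JAM2, a junctional adhesion molecule, differed by 6.61 ± 0.39, CD34, a sialomucin of capillaries, by 5.83 ± 0.39, and the integrin ligands VCAM1 and ICAM1 by 2.97 ± 0.28 and 2.58 ± 0.31. ICAM2, another such ligand, was higher in WBC (-1.80 ± 0.30), a call lost with each tissue normalized on its own (-0.87, adjusted p = 0.12), and 3 members were without cow 833. SELE, the selectin of activated endothelium, was well above background in no SCE lining (5.89, 5.70, 6.13 and 5.78). Of 9 leukocyte-side genes, 8 were higher in WBC, with ITGB7, the beta chain of the gut-homing integrin, at -5.64 ± 0.21 and ITGAL, the alpha chain of LFA-1, at -4.85 ± 0.37. ITGB1, a broadly expressed integrin chain, was the member higher in endometrium (2.52 ± 0.37, adjusted p = 0.0054) at its brightest probe, whereas its other 2 probes were not called (0.20 and -0.83) and neither was the mean of all 3 (0.63, adjusted p = 0.13).

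Antigen presentation and interferon response genes were higher in WBC. Of 17 presentation genes 13 were called so and 0 as higher in endometrium, with a median of -2.13. BOLA-DRA, a class II chain, measured 15.07, 14.55, 13.74 and 14.19 in endometrium and 17.43, 17.62, 17.44 and 17.83 in WBC (-3.19 ± 0.27). BOLA-DMB, which loads peptides, differed by -3.70 ± 0.19, BOLA-DQA1 by -3.41 ± 0.29 and CD74, the invariant chain, by -3.40 ± 0.33. Of 24 interferon response genes, 15 were higher in WBC and 0 in endometrium, with a median of -1.50. IFIT2, which binds viral RNA, differed by -6.27 ± 0.27, IFIT3 by -4.76 ± 0.24, ISG15, a ubiquitin-like modifier, by -1.70 ± 0.24 and MX1, an antiviral GTPase, by -1.95 ± 0.34. The call of MX1 was lost without cow 836 or 846 (adjusted p = 0.053 and 0.056). With each tissue normalized on its own, 3 interferon genes were higher in endometrium and 12 in WBC, and without cow 833 the counts were 3 and 15.

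The 4 SCE linings were not alike. Cow 846 was lowest in LTF, PI3, PIGR, SLPI and CFB, with 13.10 against 16.71 to 17.58 in LTF and 8.89 against 13.96 to 15.95 in PI3. Cow 833 was lowest in the epithelial EPCAM, CDH1, DSP and KRT18 and in HOXA10, MSX1 and PGR, and highest in the endothelial VWF (14.83 against 11.51 to 12.52), CD34 (14 against 11.51 to 12.27), CDH5 and KDR and in the chemokines CCL14 and CXCL12. The array of that lining was also the dimmest of the 4, and the part of its low signal in these values was not tested. Over the whole epithelial list the mean level was 9.80 in the lining of cow 833 and 9.79 in that of cow 846. It was 10.67 and 10.84 in the linings of cows 718 and 836. Cow 718 was highest in PTGS2 (13.80 against 8.40 to 9.30), CXCL3, IL6 and JCHAIN. No lining was high or low in all of these genes at once, and the labels give no measure by which the cows could be ordered.

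**Figure D4:**
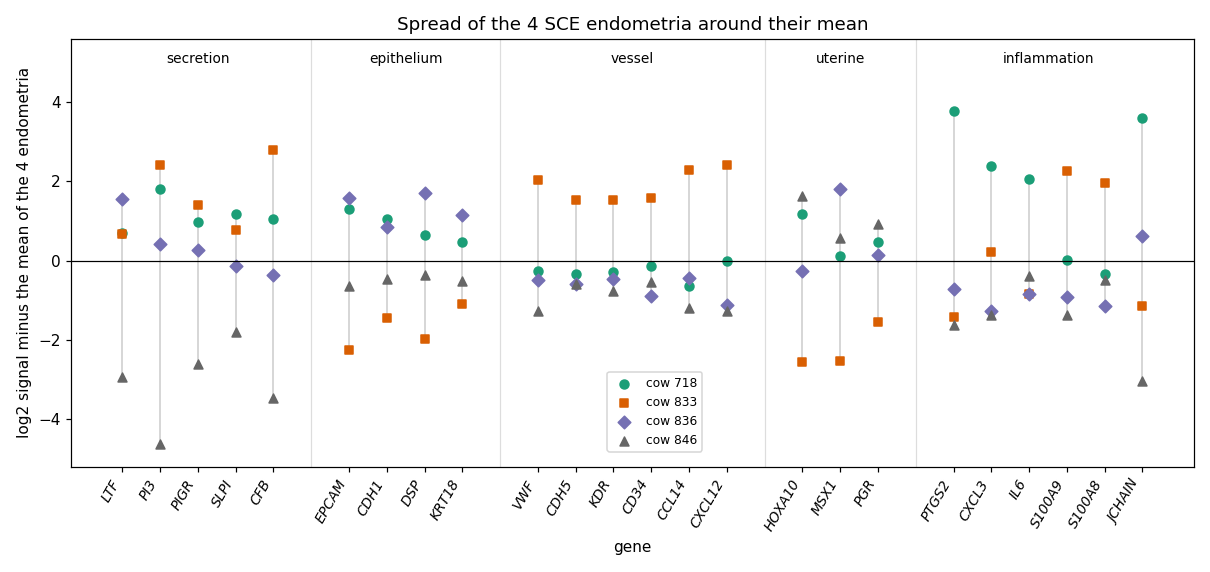
Log2 signal of each SCE lining minus the mean of the 4 (y axis) for genes of secretion, epithelium, vessel, uterine identity and inflammation (x axis), with a symbol per cow. Cow 846 was lowest in the 5 genes at the left. Cow 833 was lowest in the epithelial and uterine genes shown and highest in the vessel genes shown. Cow 718 was highest in PTGS2, CXCL3, IL6 and JCHAIN.

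For some genes the probe decided the direction. Of 12053 genes with several probes, 1.64% had probes called in both directions, and among the list genes these were KRT8, THBS1, COL6A2 and MUC1, the last named after its values were seen. Of 205 list genes that were not called at their brightest probe, 50 had another probe that was. A pair of probes of KRT8 is printed since they gave opposite readings of the same gene. The brightest lay at chr5:29997842-29997901 and the one with the largest difference at chr5:30005397-30005456, both on the plus strand.
KRT8, brightest: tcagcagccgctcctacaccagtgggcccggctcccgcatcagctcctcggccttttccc
KRT8, largest difference: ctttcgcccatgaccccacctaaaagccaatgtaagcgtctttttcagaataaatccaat
The brightest probe of DCN, decorin of the stroma, differed by -0.61 ± 0.16 and was not called, whereas 7 of 9 probes were called as higher in endometrium, by 8.71 to 11.67. The brightest KRT8 probe was called as higher in WBC (-1.72 ± 0.29, adjusted p = 0.01, a call lost without cow 718, 836 or 846 at adjusted p = 0.054, 0.053 and 0.054), and 3 of 4 probes were called as higher in endometrium, by 2.52 to 5.65. The brightest probe of COL1A1, the other chain of type I collagen, differed by 0.39 ± 0.23, and 4 of 5 probes were higher in endometrium by 3.29 to 10.31. DES, desmin of muscle, differed by -0.68 ± 0.25 at its brightest probe and was higher in endometrium at 3 of 4 probes. On the blood side, 3 of 4 probes of TLR2 and 2 of 3 of TLR4 were called as higher in WBC, and 2 of 4 probes of NFKBIA, the inhibitor IkappaB alpha, as higher in endometrium (1.34 and 1.43), none of them the brightest. Which probe follows the transcript was not tested.

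**Figure D5:**
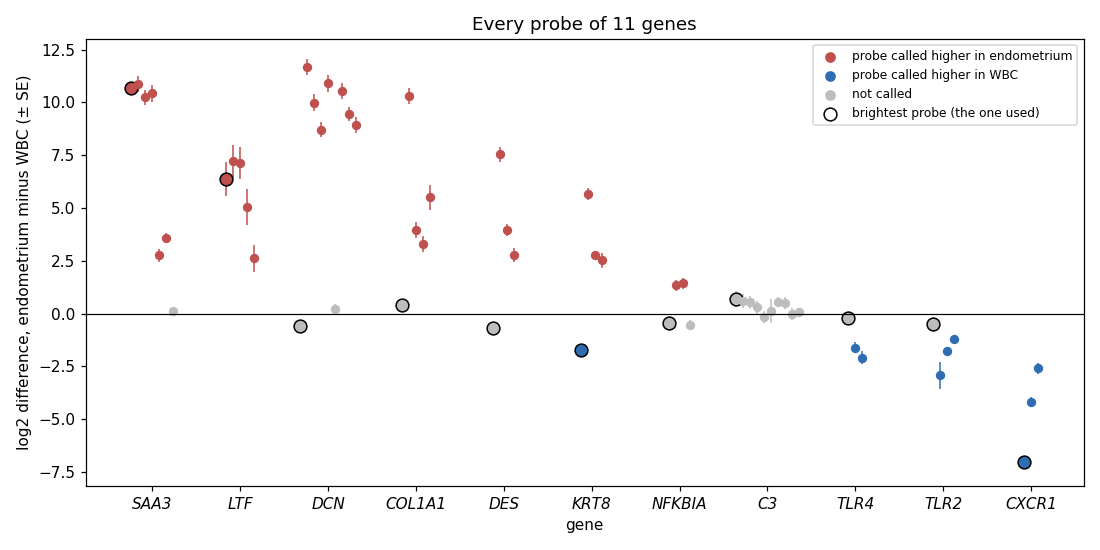
Log2 difference between endometrium and WBC (± SE, y axis) of every probe of 11 genes (x axis), red where called as higher in endometrium, blue where called as higher in WBC and grey where not called, with the brightest probe, which stood for the gene, ringed. The probes of SAA3 and LTF lay on one side, whereas the ringed probe of COL1A1, DES and KRT8 stood apart from the rest and that of DCN from all but 1.

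Whether the tissue difference was larger or smaller in SCE than in healthy cows was tested on the within-cow differences of all 8 cows. The SCE cows were mostly luteal, whereas the healthy cows were evenly split between the luteal and follicular phases. By RT-qPCR in healthy cows, the paper reports a significant effect of phase on endometrial genes that include LTF, SAA3 and TFF3. The part of phase in the differences given here was not tested. No gene of 26362 was called after adjustment in limma's TREAT test (smallest adjusted p = 1), and 0.63% had an unadjusted p of at most 0.05, 0.338% with a larger and 0.292% with a smaller endometrium-minus-WBC difference in SCE cows. The 166 genes behind that share became 188, 556, 161 and 451 without cow 718, 833, 836 or 846, and 268 without healthy cow 883. Among the list genes these were 15, of which 13 were larger, 8 of them among the 23 members of the mucosal list. The lists and their members were chosen with earlier results of these data known, so these counts cannot be read as enrichment. PI3 had the largest value, with within-cow differences of 6.06, 7.44, 4.89 and 0.02 in SCE and 1.13, 0.35, 0.54 and 2.09 in healthy cows (SCE minus healthy 3.58, unadjusted p = 0.029). LTF had differences of 7.27, 7.29, 7.72 and 3.22 in SCE and 3.57, 3.54, 1.95 and 2.97 in healthy cows (3.37, unadjusted p = 0.0061). In both genes 3 SCE cows lay above the healthy cows, whereas cow 846 lay among them in LTF and below them in PI3. TFF3 had 6.94, 8.93, 7.34 and 6.75 in SCE and 5.26, 4.04, 3.60 and 5.68 in healthy cows, the only one of these 3 genes without overlap (2.84, unadjusted p = 0.0011). SLPI, TAP, DEFB, WFDC2 and KLK10, of which the last 4 were named after their values were seen, had values of 2.20, 2.44, 2.16, 2.10 and 1.80. SAA2, SAA3 and M-SAA3.2 had values of 2.48, 2.55 and 2.63, with linings of 13.17, 12.66, 14.51 and 17.54 for SAA3 in healthy cows, so that 1 healthy lining lay within the SCE range. The other members, named after their values were seen, were CD247 of the T cell receptor (0.91), the lymphocyte chemokine CCL19 (2.27) and the matrix protease MMP2 (-0.98). Values below 0, again without a call, were given by SELE (-1.39) and, among all genes, for NPPC, the C-type natriuretic peptide (-2.64), TMEM130 (-2.52), NPY, neuropeptide Y (-2.27), COL9A3 (-1.91) and ANO4 (-1.85).

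The neutrophil markers read here gave no unadjusted p of at most 0.05. CSF3R differed between tissues by -7.32 in SCE and -7.86 in healthy cows (unadjusted p = 0.2), CXCR1 by -7.02 and -7.51 (0.27), S100A9 by -7.71 and -8.69 (0.25) and S100A8 by -5.66 and -7.04 (0.054). The mean level of the neutrophil list was 8.08 to 8.55 over SCE linings and 8.02 to 8.28 over healthy linings, and that of the pan-leukocyte list 9.75 to 10.53 and 9.68 to 9.98. With 4 cows against 4, a p that misses the threshold does not show that the linings were alike.

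Of the genes that the study had chosen for RT-qPCR, which are not an independent choice, LTF, TFF3, SAA3, PF4 and CXCL8 are given above. CAT, the catalase that breaks down hydrogen peroxide, measured 12.37, 12.87, 13.21 and 12.57 in endometrium and 10.66, 11.29, 10.60 and 10.59 in WBC (1.97 ± 0.22, adjusted p = 0.0025). SOD1, the cytosolic superoxide dismutase, was higher in endometrium (1.73 ± 0.31, adjusted p = 0.012), a call lost without cow 718, 836 or 846 (adjusted p = 0.061, 0.059 and 0.056). SOD2, the mitochondrial form, was higher in WBC, at 10.84, 10.41, 10.38 and 10.69 in endometrium and 12.48, 13.16, 13.01 and 11.93 in WBC (-2.07 ± 0.31, adjusted p = 0.0063). The cytosolic and mitochondrial forms thus lay on opposite sides in all 4 cows. PRKCI, an atypical protein kinase C, differed by -0.03 ± 0.26 and TRAPPC13, of a vesicle-tethering complex, by 0.29 ± 0.36, and neither was called, though TRAPPC13 was without cow 833 (0.73, adjusted p = 0.039).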

How the data were processed

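The 8 arrays of SCE cows and the 8 of healthy cows were deposited as Agilent scanner files of 1 colour. Per the labels and the study's methods, the authors labelled total RNA with cyanine 3, hybridized it to a custom bovine array, scanned the slides and extracted the spot intensity with Agilent's Feature Extraction software, for which the submitters' processing notes give 10.10.1.1, so the deposited values used here are intensities (median signal per spot) before normalization. The authors' own table of quantile-normalized intensities, on a linear scale, was deposited too and served, after log2, only as an alternative.

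In R 4.3.3 with limma 3.58.1 and data.table (1.17.8), 1319 control spots and outlier spots were left out, log2 median signals of 52689 spots were brought to the same quantiles across the 16 arrays, and replicate spots averaged to 46615 probes, as the study's methods state quantile normalization and TREAT. Probes were named through the accession (60.1%), symbol (11.4%) or older symbol (0.3%) in a RefSeq gene table, and the others (28.2%) kept the name in the files. A gene was read from its probe with the highest mean over the SCE arrays. That probe was chosen anew in each alternative, over the SCE arrays kept, unless probes were averaged. Endometrium was compared with WBC with cow as a block, since both samples came from the same animal, by TREAT at 1.2-fold and at 4-fold, adjusted over all 46184 probes tested (Benjamini-Hochberg, 0.05). Deviations of the paired arrays from their group means correlated by -0.05, -0.24, 0.06 and -0.02 over probes in cows 718, 833, 836 and 846. SCE and healthy cows were compared on the within-cow difference. Where no array of a tissue was well above background, "at least N-fold" set the brighter group's mean against the lowest signal well above background, or the dim signal itself where higher. An exact sign-flip permutation of 4 pairs cannot reach 0.05, so single genes were read from the fit. The test was checked on simulated data.

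Named genes were the defining genes of each list, its 2 largest called differences in each direction, the 10 largest rises and falls over all genes beyond 4-fold with groups apart, the 5 largest SCE-minus-healthy differences in each direction at an unadjusted p of at most 0.05, and the study's RT-qPCR genes, of which ART5 was not matched. The comparison, the lists and their members were chosen with earlier results of these data known. Some items that the rule names are not reported here. Of 586 list genes, 40 had no matched probe. Labels call the 4 arrays of a group separate animals. Alternatives were each tissue normalized on its own, SCE arrays alone, scaling of the processed signal to the 75th percentile, normexp background correction (offset 50), the authors' values, a filter on dim probes, averaging the probes of a gene, a trended variance, no cow block, other TREAT thresholds, all 16 arrays in 1 fit, and each cow left out. File headers name build HGSC Btau_3.1, from which positions were taken. Figures were drawn with Python 3.11.15, numpy 2.4.6 and matplotlib 3.10.9.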

Additional observations from a re-analysis of the deposited data

Results flagged for a closer look

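In 26 of 344 groups of 4 arrays (7.56%), over the named genes and both tissues of the SCE cows, 1 array stood far from the other 3, where chance gives about 5%. In 9 of the 14 such WBC values the array was that of cow 833, the brightest of the 4 WBC arrays.

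In WBC of cow 833, the level was high in CAT (11.29, the others 10.59 to 10.66), CD53 (15.86, the others 14.49 to 14.60), PTGS2 (6.27, the others 5.41 to 5.48), S100G (7.15, the others 5.94 to 6.11) and SELE (6.64, the others 5.73 to 5.85). It was low there in AQP1 (6.02, the others 6.44 to 6.52), CFP (13.26, the others 13.46 to 13.47), MUC20 (10.19, the others 10.75 to 10.81) and NPY (9.11, the others 9.78 to 9.91). WBC of cow 718 was high in ESR1 (7.30, the others 6.13 to 6.27) and IL1RN (15.14, the others 14.52 to 14.55), WBC of cow 836 in S100A9 (15.40, the others 14.92 to 15) and SPARC (6.91, the others 6.35 to 6.38), and WBC of cow 846 in CD74 (16.02, the others 15.11 to 15.24).

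In endometrium, cow 718 was high in C5AR2 (8.41, the others 6.37 to 6.60), IL6 (8.60, the others 5.69 to 6.15), LY96 (9.98, the others 9.37 to 9.47) and PTGS2 (13.80, the others 8.40 to 9.30) and low in PROX1 (5.53, the others 5.83 to 5.88). Cow 833 was high in CDH5 (10.03, the others 7.90 to 8.17), ESR1 (7.85, the others 6.60 to 6.81) and LCN2 (10.02, the others 9.39 to 9.46) and low in CX3CR1 (7.24, the others 8.53 to 8.71). Cow 836 was low in ITGB1 (13.75, the others 14.18 to 14.21) and TNFRSF1B (12.03, the others 12.85 to 13.01), and cow 846 was high in COL1A1 (13.81, the others 12.48 to 12.60).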

How the results depend on the processing

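Which genes and lists were called depended on the scaling and on the cow left out. With each tissue normalized on its own, 8335 genes were higher in endometrium and 1804 in WBC, and beyond 4-fold 1397 and 349. With processed signals scaled to the 75th percentile, 2047 genes were called beyond 4-fold, 1257 of them higher in endometrium. TREAT against 2-fold called 3400 genes, 1899 and 1501 by direction. Leaving out each cow in turn gave 5052 to 14092 genes called, 2554 to 6289 higher in endometrium, 2498 to 7803 higher in WBC, 876 to 2276 beyond 4-fold, 479 to 1465 of these higher in endometrium and 364 to 811 higher in WBC. The highest of each came without cow 833. Without the cow as a block, which pairs samples of the same animal, 10673 genes were called. For SCE against healthy cows, 0 genes were called after adjustment under each alternative run for that comparison (SCE arrays on their own, TREAT against 2-fold and all 16 arrays in 1 fit were run only for the difference between tissues), while 443 had an unadjusted p of at most 0.05 with a TREAT threshold of 0 and 115 to 556 when a cow was left out. List medians relative to all genes changed sign for plasma cell genes when a cow was left out (-0.76 to 0.29), for complement components (0.01) with a filter on dim probes (-0.49), for acute phase genes scaled to the 75th percentile (0.15), with normexp (0.09), a filter on dim probes (0.62), probes averaged per gene (0.09) and when a cow was left out (-0.26 to 0.05), and for prostaglandin and leukotriene genes with each tissue on its own (0.01) and the mean of a gene's probes (0.17). The complement components were at 0, rounded, with normexp, the authors' values and all 16 arrays in 1 fit. COL6A2 turned with each tissue on its own (0.05), and the mean of a gene's probes turned COL6A2 (2.62), DCN (7.76), DES (3.40) and KRT8 (2.31). Of 2739 comparisons of 172 named genes under 16 alternatives, 2577 kept direction and call, 118 lost the call, 39 gained one and 5 turned, and 119 genes had the same call throughout. Why single settings moved a value was not tested. Dim probes limit low genes, since spots well above background ranged from 64.7% upward in the SCE arrays.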
